A study of Mus musculus with 24 samples.

Results

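Pxdn and Lama3 are basement membrane genes whose mRNA was measured in epithelial cells sorted from the intestine of mice with and without Smarcad1. They were the rows named Pxdn and Lama3 in the deposited tables, so that 2 of the 82 genes with a row in any table are described here. Both had been selected on a measured difference. Each table holds the genes that passed the authors' FDR limit of 0.1 between genotypes in 1 cell type. Pxdn was in the table of intestinal stem cells (ISC) and Lama3 in the table of adult enterocytes (AE), whereas the tables of transit amplifying cells (TA) and colon epithelial cells (CO) held neither. The differences of Pxdn in ISC and of Lama3 in AE are thus the ones that the authors' test selected. Their direction is described here and has no further test.

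The study compared Smarcad1-KO mice, where a Vil-Cre transgene active in intestinal epithelium removes loxP-flanked exons of the chromatin remodeler gene Smarcad1, with wild type (WT) mice. Mice of both genotypes were C57BL/6 with Lgr5-GFP per the labels, an allele that the study's methods describe as a knock-in into Lgr5 that also encodes an inducible cre, and they were males. Their age, and whether WT mice carried cre or the loxP-flanked allele, is not given in the sources used here. The 24 libraries formed 8 groups of 3, KO and WT of each cell type. ISC and TA were crypt cells of the small intestine with high and medium GFP, sorted simultaneously from the same suspensions without antibody staining. AE came from villi and CO from colon crypts, both as Epcam-high cells negative for CD31 and CD45. Villus cells were freed without the enzyme digestion used on crypts. For every group the tables give 1 log2 value of each gene, a mean made by the authors and read here as scaled to total reads. Values of single libraries were not analysed here, so the levels and differences below have no SD, interval or test beyond the authors' listing. Library depth is unknown.

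The basement membrane is the thin sheet of extracellular matrix on which epithelial cells stand, built of networks of laminin and type IV collagen. Laminins are made of several different chains, and Lama3 encodes the alpha chain of a laminin that anchors epithelia through hemidesmosomes. Pxdn encodes peroxidasin, a secreted haem peroxidase that forms the covalent sulfilimine bonds between type IV collagen molecules. In the intestine, epithelial cells move along this sheet from the crypt to the villus or the surface as they mature.

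Pxdn (ENSMUSG00000020674) is a plus-strand gene of chromosome 12 (GRCm38), with its start at 29937608 and its end at 30017658. GENCODE M21 gives it 8 transcripts, of which 3 are coding, and no other gene overlaps it. None of its 9822 different 50-mers, the length of the reads, occurred in a transcript of another gene. Lama3 (ENSMUSG00000024421) is a plus-strand gene of chromosome 18, with its start at 12333819 and its end at 12583013, and spans 249 kb. It has 2 coding transcripts, a long one of 75 exons and a short one of 38 exons that begins 170 kb downstream and shares most of its exon bases with the long one. Of the merged exon bases of Lama3, 49.8% belong to both transcripts and 48.3% to the long one alone. The deposited value merges them, so which transcript a difference comes from was not tested. The start of the short transcript overlaps the antisense gene Gm29200 on the opposite strand over 197 exon bases, which is 1.83% of the merged exons. That gene was also the only one to share 50-mers with Lama3, for 1.39% of them.

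**Figure D1:**
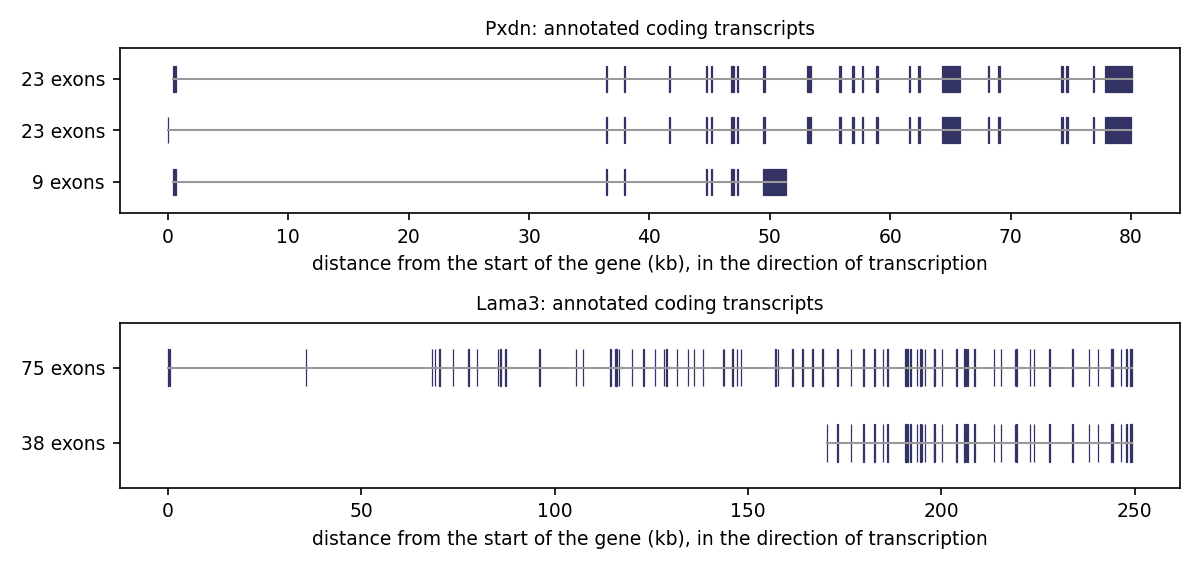
Annotated coding transcripts of Pxdn (top) and Lama3 (bottom), with exons as boxes against the distance from the start of the gene in kb and with the narrowest boxes widened slightly by their outlines. The short Lama3 transcript of 38 exons starts 170 kb into the gene, and the values described here merge all transcripts of a gene.

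In WT mice the genes had opposite distributions over the cell types. Pxdn was highest in the crypt cells of the small intestine and Lama3 in villus and colon cells. The log2 value of Pxdn was 5.31 in WT ISC, 3.61 in WT TA, 0.56 in WT CO and -0.36 in WT AE. Along the differentiation path of the small intestine the value was thus 1.70 higher in ISC than in TA and 3.97 higher in TA than in AE, and the level in WT ISC was 51.0 times that in WT AE. The log2 value of Lama3 was 6.02 in WT AE, 3.85 in WT CO, 0.60 in WT ISC and 0.26 in WT TA. Its level in WT AE was 42.8 times that in WT ISC and 4.50 times that in WT CO. The smallest gaps between neighbours in these orders were 0.34 on the log2 scale, between ISC and TA for Lama3, and 0.93, between CO and AE for Pxdn. With 1 value per group, whether neighbours differ beyond the spread between libraries cannot be said. In bulk samples, moreover, fewer expressing cells and less RNA per cell cannot be told apart.

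The order of Pxdn was the same in KO mice, with 3.94 in KO ISC, 3.02 in KO TA, 1.86 in KO CO and -0.07 in KO AE. That of Lama3 was not. Its values were 5.23 in KO AE, 1.62 in KO ISC, 1.47 in KO CO and 0.61 in KO TA, so that colon cells, next to AE in WT, came to lie just below ISC. Both genes were above the lowest value of their columns in every group, the nearest being Pxdn in WT AE at 4.80 log2 units above it. Pxdn was still low in WT AE, in place 76 of 82 genes from the top. Its ratio of WT ISC to WT AE therefore rests on a low value, whose spread between libraries is not known.

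**Figure D2:**
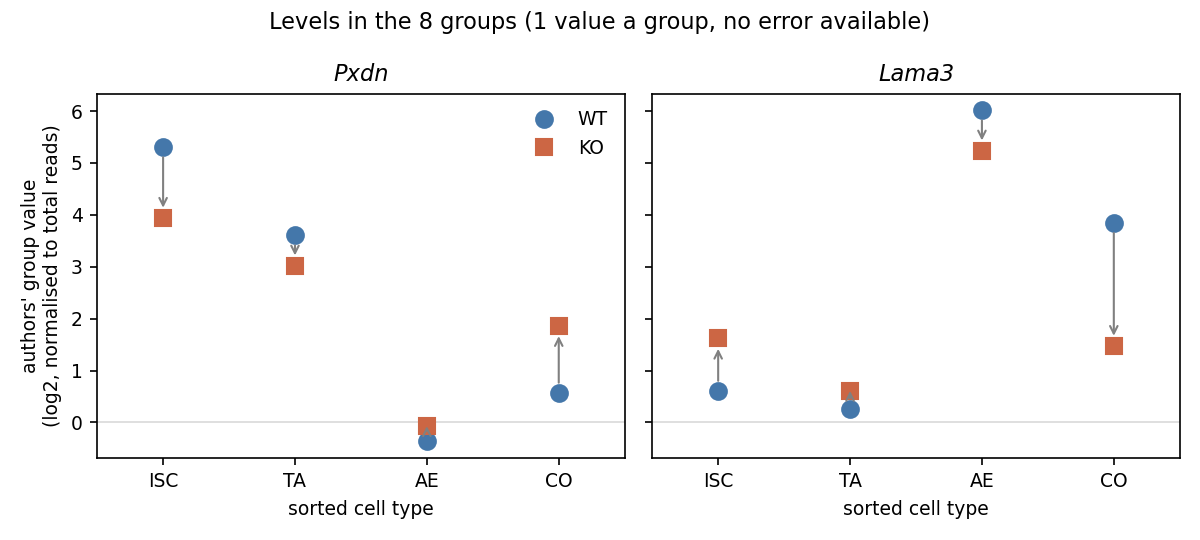
Levels of Pxdn (left) and Lama3 (right) in each sorted cell type, as 1 log2 value of the authors per group without an error bar, with circles for WT, squares for KO and arrows from WT to KO. Pxdn is highest in ISC and Lama3 in AE, and the KO square lies below the WT circle in ISC and TA for Pxdn and in AE and CO for Lama3.

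Pxdn was lower in KO in the crypt populations of the small intestine and higher in the other cell types. In ISC, where it was listed, it fell by 1.37 on the log2 scale, which leaves 38.6% of the WT level. This was the 5th lowest difference of the 82 genes in ISC, where 15.9% of the genes were lower by at least 0.5 on the log2 scale. The ISC table listed 2 genes as lower in KO, Pxdn and AY036118, the latter named after its values were seen, and 5 as higher. In TA, which did not list Pxdn, the difference was -0.59, or 66.2% of WT, and 11.0% of the genes were lower by at least 0.5. Since ISC and TA came from the same crypt suspensions, their like direction is not independent.

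The differences of Pxdn in villus and colon cells had the opposite sign. In AE the value was 0.29 higher in KO, under the size of 0.5 that 26.8% of genes reached in that direction. In CO it was 1.30 higher, so that the KO level was 2.46 times that of WT, and 24.4% of genes were higher by at least 0.5. Among the 26 genes that the CO table did not list, this was the highest difference, and Pxdn in WT CO was low, in place 75 of 82 genes from the top. With a pseudocount of 1 the difference in CO was 0.90.

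Lama3 showed the reverse signs in each of the 4 cell types. In AE, where it was listed and had its highest level, it fell by 0.79 on the log2 scale, to 58.0% of WT. It was 1 of 3 listed genes lower in KO there, with Ifit1 and Pmp22, the latter named after its values were seen, against 17 that were higher, and 17.1% of the 82 genes were lower by at least 0.5. The larger difference was in CO, which did not list Lama3. There the value was 3.85 in WT and 1.47 in KO, a difference of -2.38, which leaves 19.2% of the WT level. Lower values by at least 0.5 were common in CO, with 49 of the 82 genes, or 59.8%. Of these, 44 were listed in CO as lower, while the 26 genes not listed there had a median difference of 0.11. The 44 genes that the CO table listed as lower had a median difference of -1.26, and 38 of them had a smaller difference than Lama3. In a separate count over the same 44 genes, 9 had a lower level than Lama3 in WT CO. Lama3 had the lowest difference of the 26 genes not listed in CO. The spread of Lama3 between the CO libraries is not known, and why Lama3 was not listed in CO was not tested.

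In the crypt populations of the small intestine Lama3 was low, and higher in KO. Its difference was 1.02 in ISC, or 2.03 times the WT level, where 43.9% of genes were higher by at least 0.5, and 0.34 in TA, where 30.5% were. Neither table listed it. A pseudocount of 1 reduced these differences to 0.69 and 0.20.

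**Figure D3:**
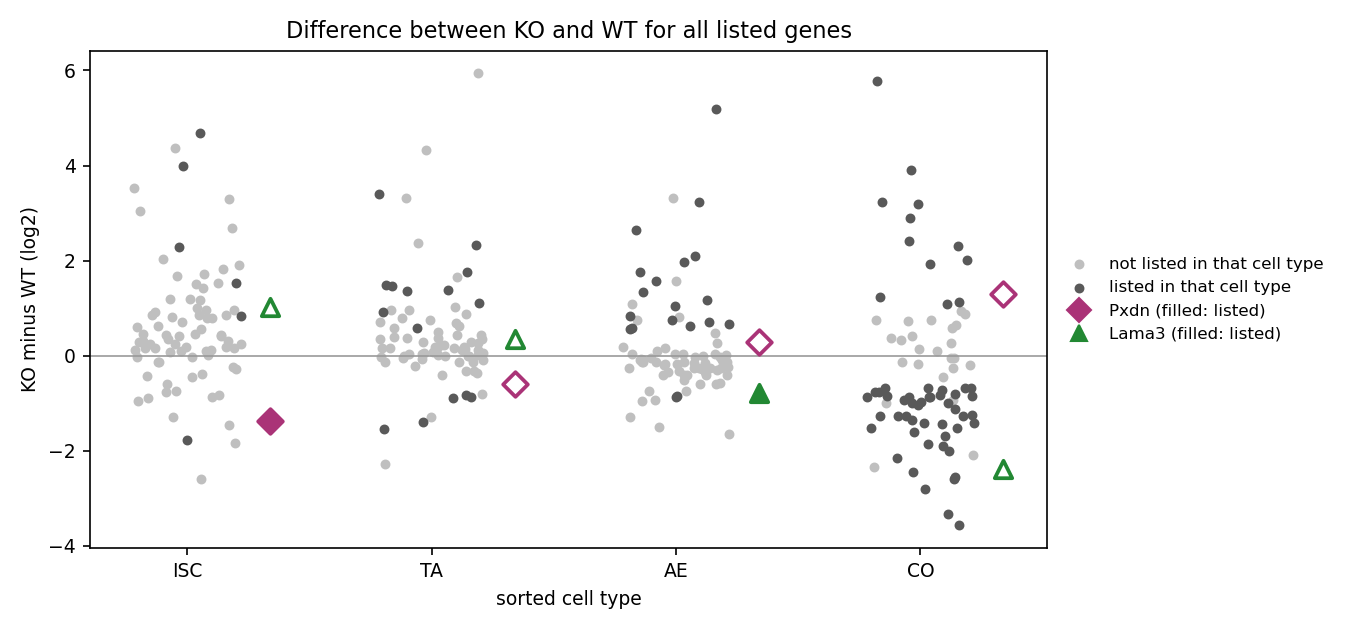
KO minus WT difference on the log2 scale for each of the 82 genes in each cell type; dark points are genes listed in that cell type and light points genes listed in another, spread sideways for visibility. Pxdn (diamonds) lies below 0 in ISC and TA and above it in AE and CO, and Lama3 (triangles) does the reverse, with its lowest value, -2.38, in CO; filled symbols mark the cell type that listed the gene.

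Each gene was thus lower in KO where it was highest in WT and higher in KO where it was lowest. The span between the highest and the lowest cell type was 5.67 log2 units for Pxdn in WT and 4.01 in KO. For Lama3 it was 5.75 in WT and 4.63 in KO. A smaller span in KO was common among the 82 genes, with 59 of them, or 72.0%, and a median change of -0.36. The changes of Pxdn and Lama3, -1.66 and -1.13, ranked 10 and 15 of 82 from the largest reduction. Likewise, 44 of the 82 genes, or 53.7%, were lower in KO in their highest WT cell type and higher in KO in their lowest. The highest and lowest cell types were picked on the same WT values that the differences subtract. Such a choice by itself favours a lower KO value at the top and a higher one at the bottom. Since genes entered these tables by a difference between genotypes, these shares describe the listed genes only.

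The signs of Pxdn over the cell types were shared by few genes and those of Lama3 by many. Lower in ISC and TA and higher in AE and CO were Pxdn, Gm26917 and Rbm25, the last 2 named here after their values were seen, which is 3.66% of the genes. Higher in ISC and TA and lower in AE and CO were Lama3 and 26 other genes, or 32.9%. Of these 27, 24 were listed as lower in CO. The pattern itself requires a lower value in CO, which 56 of the 82 genes had, and 44 genes were listed there as lower.

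To set the genes against each other, the values were divided by the length of the merged exons, 9648 nucleotides for Pxdn and 10745 for Lama3. On this log2 scale per kb, the difference of Lama3 minus Pxdn was -4.86 in WT ISC and -3.50 in WT TA, but 6.23 in WT AE and 3.13 in WT CO. In KO the gaps were smaller in each cell type. The difference was -2.47 in KO ISC, -2.56 in KO TA and 5.15 in KO AE. In KO CO the order had turned, with a per-length value of -1.96 for Lama3 and -1.41 for Pxdn. That gap of -0.55 was -0.14 with the length of the short Lama3 transcript and -1.07 with that of the principal transcripts, choices made after the values were seen. Without division by length, in case the deposited values already hold it, it was -0.40.

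Other genes of the basement membrane were mostly outside the tables. Of a list of 63 genes, 4 had a row, namely Lamb3, Plec and the genes chosen for this report, Pxdn and Lama3. Only 82 genes had a row at all, so most genes of any list are without one. The share of all tested genes with a row is not known here, and the counts were not tested against it. They were 2 of 11 laminin chains, 1 of 7 cross-linking enzymes and 1 of 14 genes for hemidesmosomes and receptors. None of 6 chains of type IV collagen, the substrate of peroxidasin, had a row, nor did any of 17 linkers and other components or 8 proteases and their inhibitors. Within the haem peroxidase family, Pxdn was the 1 gene of 5 with a row. Genes without a row were not analysed here, and their levels are not known.

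Lamb3, whose product is the beta chain that pairs with the Lama3 chain, was listed in CO. It fell there by 0.87 on the log2 scale, from 6.63 in WT to 5.75 in KO, which is 54.6% of WT. Unlike Lama3, it was also lower in KO ISC, with 5.39 against 6.27 in WT. In TA its values were 4.30 in WT and 4.31 in KO, and in AE 4.71 and 4.19. Lamb3 was thus highest in WT CO and WT ISC, whereas Lama3 was near its lowest in ISC. The span of Lamb3 overlaps 6 other genes on either strand, none of which shares an annotated exon base with it. Plec encodes plectin, which links hemidesmosomes to keratin filaments. It was listed in CO, where it fell by 0.80, from 9.09 to 8.29. In AE, where Lama3 fell, Plec had values of 9.71 in WT and 9.68 in KO. In CO the 3 genes were lower in KO, by 2.38 for Lama3, which was not listed, and by 0.87 and 0.80 for Lamb3 and Plec. Lamb3 and Plec have values here only because they were listed in CO, so a difference there was a condition of their selection. In CO 59.8% of all 82 genes were lower by at least 0.5, most of them listed there as lower. Whether the 3 genes changed together was not tested.

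**Figure D4:**
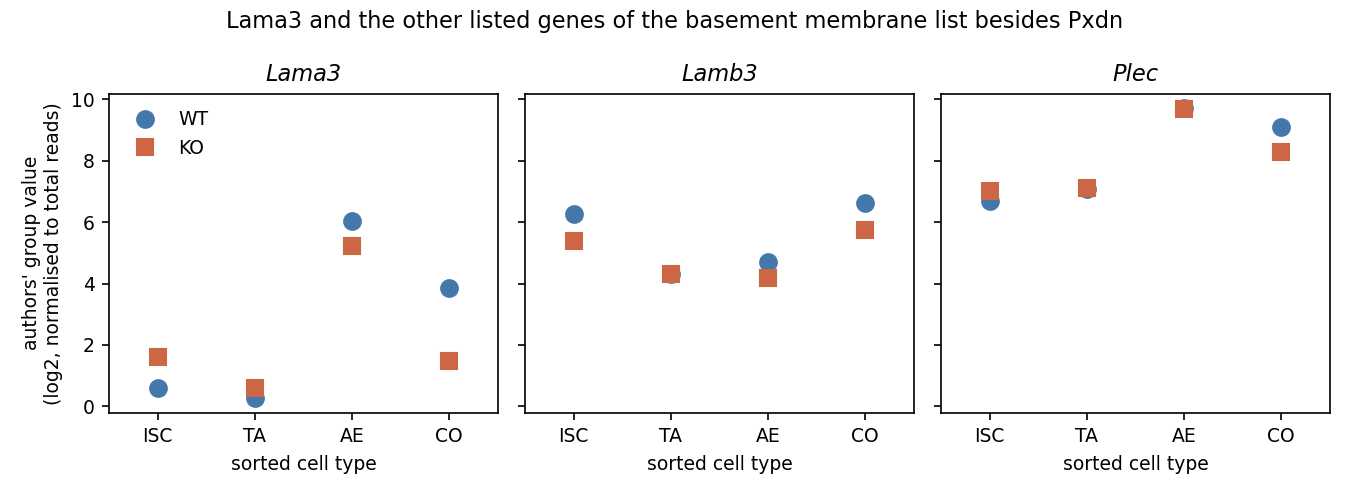
Levels of Lama3, Lamb3 and Plec in each sorted cell type, as 1 log2 value of the authors per group, with circles for WT and squares for KO and with heights that are not per length. The KO square lies below the WT circle for all 3 genes in CO, and in ISC for Lamb3 only.

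The profile of Lama3 over the 8 groups was close to that of many listed genes, and that of Pxdn to few. Among the 81 other genes, 17 had a Pearson r of at least 0.9 with Lama3 over the 8 group values, and 1 had with Pxdn. These correlations are over 8 group means, which share libraries' depth and scaling, and are a description. The counts also depend on which genes have a row. CO listed 56 of the 82, with 44 as lower, whereas ISC listed 7. Most like Lama3 were Ifit1 (r = 0.98), an interferon-induced gene, Tmem140 (r = 0.98) and Mtmr11 (r = 0.98). Ifit1, the other AE-listed gene among them, had a difference of -0.87 in AE and of -2.36 in CO. Tmem140 and Mtmr11 were listed in CO, with differences of -2.15 and -0.82. Most like Pxdn were Slc1a3 (r = 0.93), a glutamate transporter, Ascl2 (r = 0.85), a transcription factor of intestinal stem cells, and Apobec3 (r = 0.83), a cytidine deaminase. Slc1a3 and Apobec3 were listed in TA, with differences of -0.90 and -0.83, and Ascl2 in CO. In ISC, where Pxdn fell, Slc1a3, Ascl2 and Apobec3 had differences of -0.84, -0.45 and -0.87. In AE, where Pxdn was higher in KO, theirs were -1.28, -0.05 and -0.94. In CO, where Pxdn was also higher, theirs were 0.94, 1.08 and -0.25. Pxdn and Lama3 themselves had an r of -0.90, which was the lowest that Lama3 had with any gene. For Pxdn it was 11th from the lowest, which was -0.99 with Nt5e, named after its value was seen, and 61 of the 81 genes had a negative r with Pxdn.

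**Figure D5:**
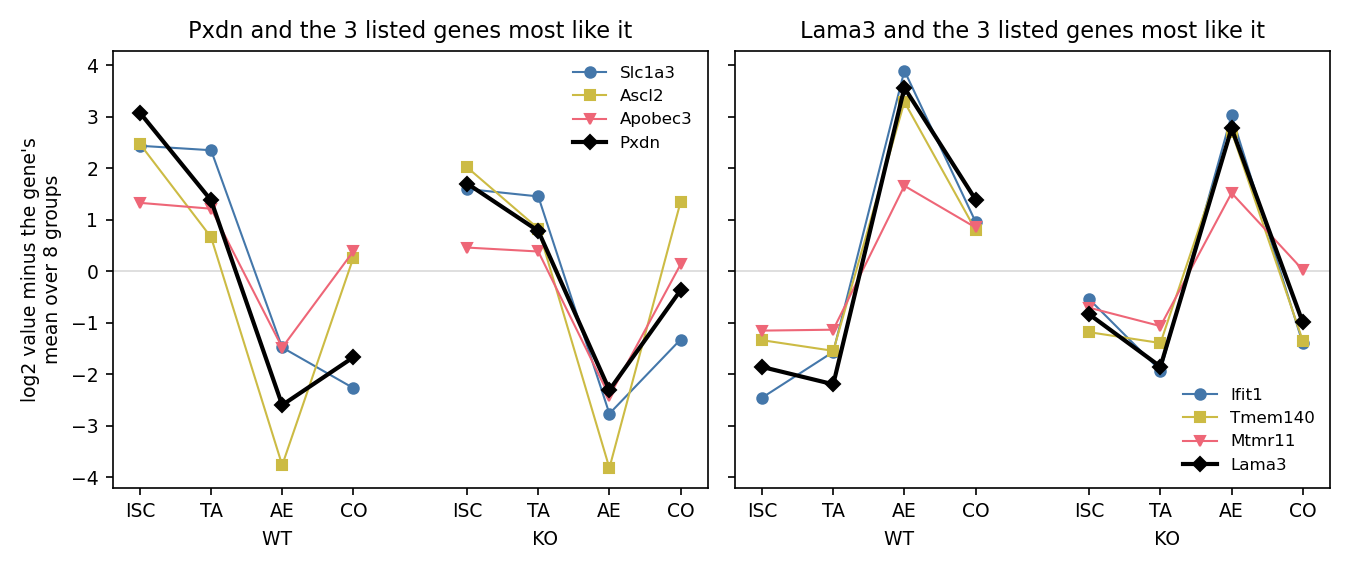
Log2 value minus the mean of the gene over the 8 groups, in WT and KO of each cell type, for Pxdn (left) and Lama3 (right) in black and the 3 listed genes with the highest Pearson r to each in color. In both genotypes Lama3 and the 3 genes like it peak in AE, and Pxdn and the 3 genes like it peak in ISC; lines only join the points.

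Few marker genes could be read beside these values. Among the 82 genes with a row were 2 of 34 markers of epithelial and other cell types, Ascl2 for stem cells and Lyz1, lysozyme, for Paneth cells. None of the 14 markers of fibroblasts, endothelium, smooth muscle or leukocytes had a row, so their levels are not known here. Ascl2 was highest in WT ISC at 6.05 and lowest in WT AE at -0.18, as the names of those populations have it. Its difference was 1.08 in CO, where it was listed and where Pxdn was 1.30 higher, and -0.45 in ISC, where Pxdn fell. The signs of Ascl2 and Pxdn differed in the other cell types. The difference of Ascl2 was 0.17 in TA against -0.59 for Pxdn, and -0.05 in AE against 0.29. Lyz1 was the highest of the 82 genes in WT ISC at 9.69, and its difference was 1.20 in ISC and 1.64 in TA, which did not list it. It was listed in AE, where Lama3 fell, and rose there by 2.11, and in CO, where it rose by 3.20 from -0.09 in WT. The part of stem or Paneth cell content in the differences of Pxdn and Lama3 was not tested. Smarcad1, the targeted gene, was lower in KO in each cell type, at 54.4% to 66.0% of WT. This value covers all exons, whereas Vil-Cre removes only the loxP-flanked ones, so it does not measure how complete the deletion was. The paper reports that no protein was detectable once these exons were deleted.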

How the data were processed

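Per the labels, mRNA libraries took 10 ng of RNA, for which the study's methods give a range with that amount as its upper end, and 15 PCR cycles, with a directional kit and 50 bp single-end sequencing. Each sample held 1000 to 80000 sorted cells for ISC, 1000 to 135000 for TA, 100000 for AE and 75000 to 100000 for CO. Per the submitters' processing notes, the authors used Trim Galore 0.4.4, HISAT2 2.1.0 on GRCm38 and DESeq2; per the methods, uniquely mapped reads were counted in SeqMonk over exons of merged transcripts. Whether counting used strand is not given in the sources used here. The labels do not say that replicates are separate animals.

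The 4 deposited tables hold log2 values, the authors' mean per group, and an FDR from the authors' comparison, which was not used beyond the presence of a row. The methods name RPKM for fold changes, whereas the study's description of its gene lists names total reads. The values were read as normalised to total reads and not to length. In 6 of 8 groups genes of different genomic span shared the lowest value. Span includes introns, and a shared lowest value can arise on either scale, so this does not settle the reading. With group means alone, the planned test across libraries could not be run. Differences of log2 values, ranks and Pearson r were computed with Python 3.11.15, numpy 2.4.6 and pandas 2.3.3, and figures with matplotlib 3.10.9. The code was checked on made-up values. Gene models came from GENCODE M21, where both genes had the same start, end and strand as in the tables. The call was a difference of at least 0.5 over all 82 genes.

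Named genes were Pxdn, Lama3, Smarcad1, the 3 genes with the highest r to each member over the 8 groups, and genes of the basement membrane and peroxidase lists with a row; markers with a row and genes said to be chosen afterwards were added. The members and lists were chosen with earlier results of these data known.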

Additional observations from a re-analysis of the deposited data

How the results depend on the processing

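No alternative turned the sign of any difference of Pxdn or Lama3. A pseudocount or a floor keeps the order of values, so only centring could have turned the sign of a difference within a gene. No paired analysis was possible because the tables hold group means without a value for a numbered library, and for the same reason no replicate could be left out in turn. A difference was counted as moved when it shifted by 0.1 or more and a count when it changed by more than 1.5 times. Raising values to at least 0.1 on the linear scale moved none of them, since all values of both genes lay above that. A pseudocount of 1 shrinks differences of low values by construction. It gave 0.13 for Pxdn in AE and 0.90 in CO, and for Lama3 0.69 in ISC, 0.20 in TA and -2.03 in CO. With it, the gap between ISC and AE was 4.52 in WT and 3.06 in KO for Pxdn, and that between AE and ISC was 4.71 in WT and 3.24 in KO for Lama3. Centring each difference on the median of the genes not listed in that cell type gave -1.71, -0.75, 0.45 and 1.19 for Pxdn and 0.68, 0.19, -0.63 and -2.49 for Lama3 in ISC, TA, AE and CO. Centring on the other listed genes changed the gap of Pxdn to 7.45 in WT and 5.53 in KO, and that of Lama3 to 3.69 and 2.15. The medians used are those of genes chosen for a difference and are not a neutral reference. With a limit of 1 in place of 0.5, the genes lower in KO numbered 31 for CO, 6 for ISC, 4 for TA and 3 for AE, which still holds Pxdn in ISC and Lama3 in CO but not Pxdn in TA or Lama3 in AE. Keeping only genes that reach a log2 value of 0 in WT or KO left 8 for ISC. Euclidean distance kept 3 of the 3 genes most like Pxdn and 2 of those most like Lama3, and r over the 4 WT groups kept 2 of each. With a pseudocount of 1, an alternative chosen after seeing the data, the spans of Pxdn and Lama3 were still smaller in KO, by -1.45 and -0.97.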

Other observations

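The 3 genes that the AE table lists as lower in KO, Lama3, Ifit1 and Pmp22, were also the 3 genes with the lowest differences in CO among the 26 that the CO table does not list. Those 26 have a row only because another cell type listed them, and AE listed 17 genes as higher against these 3. They are thus not a neutral reference. Pmp22, which encodes a membrane protein best known from myelin, is named after its values were seen. The difference in CO was -2.38 for Lama3, -2.36 for Ifit1 and -2.09 for Pmp22, and that of AY036118, next in order, was -1.01. Their log2 values in WT CO were 3.85 for Lama3, 2.51 for Ifit1 and 7.09 for Pmp22. In KO CO they were 1.47, 0.15 and 5.00. In ISC all 3 were higher in KO, by 1.02, 1.91 and 1.82. In TA the direction was split, at 0.34 for Lama3, -0.36 for Ifit1 and 3.31 for Pmp22. The spread of these genes between the CO libraries is not known, and why the CO table does not list them was not tested.

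Slc1a3, the gene most like Pxdn, took the opposite direction in AE. Its difference was -1.28 there, from 1.96 in WT to 0.68 in KO, against 0.29 for Pxdn. In CO both were higher in KO, by 0.94 for Slc1a3 and 1.30 for Pxdn, the highest values among the genes that the CO table does not list.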
